A study of Homo sapiens with 4 samples.

Results

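The expression of 10 genes of the NFkB system was compared in ovarian cancer cells with a stable GALNT3 knockdown: the subunits NFKB1, NFKB2, RELA, RELB and REL, the inhibitors NFKBIA and NFKBIZ, and the induced genes TNFAIP2, TNFAIP3 and BIRC3. They were taken as a fixed list of 10 genes, chosen with earlier results of these data known. Counts of members set beside shares of all probes are therefore descriptive only. Every probe whose accession belongs to one of the genes was used. The array carried 9 such probes for 8 of the genes, out of 41000 probes and 17237 named genes in all, and all 9 passed the filter on dim probes. Probes of NFKB2 and RELA were not analysed here, since no accession of the array design matched these genes in the RefSeq table.

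The cells are A2780s, a human ovarian adenocarcinoma line grown as adherent cultures. Clones sh-G1 and sh-G2 were stably transfected with the same GALNT3 shRNA carried by pSilencer 4.1 puro, and the ctrl clone was mock-transfected with that plasmid. All 3 were isolated under puromycin, each is a single clone, and no untransfected or cytokine-stimulated culture is among the samples. GALNT3 encodes an enzyme that starts mucin-type O-glycosylation. Every knockdown clone shared 2 arrays with ctrl, labelled in opposite dyes, Cy5 marking the knockdown clone in replicate 1 and Cy3 in replicate 2. Values below are log2 ratios of knockdown over ctrl, and limma tested whether their mean over the 2 clones differed from 0. Because 1 ctrl clone served all 4 arrays, p-values rest on the spread between the clones' array means and leave out that of ctrl. With 2 clones, limma moderates this spread, drawing it toward that of probes of similar brightness. Standard errors, intervals and p-values are thus not those of a probe's 2 clone means alone. Whether the 2 arrays of a clone share an RNA extract is not stated.

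NFkB transcription factors are dimers of REL-family proteins that IkB inhibitors hold in the cytoplasm. Cytokines and microbial products activate the IKK kinases, which mark the inhibitor for degradation and release the dimer to the nucleus. There it binds kB sites and induces, among many genes of inflammation and survival, several of its own inhibitors and ubiquitin editors, so that the response is limited by feedback. In carcinoma cells the pathway is known for inflammatory and survival gene expression.

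On the arrays, 2 of the 8 measured genes were lower in the knockdown clones on every array by at least 1.5-fold: NFKBIZ, the nuclear IkB protein, and TNFAIP2, a TNF-induced gene. Over all probes 0.919% were, and by the brightest probe 218 of the 16879 named genes kept. With each array centred on its median in place of loess, or with the scanner software's own ratios, NFKBIZ alone of the members was. NFKBIZ passed the limma test and TNFAIP2 did not. The classical inhibitor NFKBIA, the A20 gene TNFAIP3 and the subunit gene REL had mean log2 ratios within 0.03 of 0, and the subunit gene NFKB1 was higher on all 4 arrays by a smaller amount that did not pass the test. Both NFKBIZ and TNFAIP2 are in the study's own list of lower genes, which was chosen on these same arrays, so that list is no independent evidence of their direction.

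The kB sites near these genes are shown first, since NFkB feedback is known to act through such sites. The 250 bases before each RefSeq start (GRCh38.p14) were searched on both strands for the kB consensus. Where a site matches on both strands, or matches overlap, each is counted. The sequences of NFKBIZ and TNFAIP2 are given because their probes were lower, and that of NFKBIA as the inhibitor whose probe was not. They are written 5′ to 3′ on the gene's strand, with kB consensus matches in capitals.
NFKBIZ, start 1, chr3:101827740-101827989, plus strand: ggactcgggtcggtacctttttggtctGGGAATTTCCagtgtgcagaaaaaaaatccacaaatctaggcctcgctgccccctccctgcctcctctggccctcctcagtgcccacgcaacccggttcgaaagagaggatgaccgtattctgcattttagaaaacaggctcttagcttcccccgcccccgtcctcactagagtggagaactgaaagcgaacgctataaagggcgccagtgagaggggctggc
NFKBIZ, start 2, chr3:101849264-101849513, plus strand: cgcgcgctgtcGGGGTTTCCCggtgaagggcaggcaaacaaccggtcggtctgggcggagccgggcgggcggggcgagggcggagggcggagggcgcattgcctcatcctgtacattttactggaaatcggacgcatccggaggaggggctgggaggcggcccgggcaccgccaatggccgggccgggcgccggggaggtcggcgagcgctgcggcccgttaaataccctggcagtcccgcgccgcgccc
NFKBIA, chr14:35404750-35404999, minus strand: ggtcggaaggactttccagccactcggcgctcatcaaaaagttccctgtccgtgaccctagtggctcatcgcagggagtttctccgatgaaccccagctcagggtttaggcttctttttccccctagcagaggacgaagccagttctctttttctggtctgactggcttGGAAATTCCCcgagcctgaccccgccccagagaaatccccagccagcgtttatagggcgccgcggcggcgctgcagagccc
TNFAIP2, chr14:103123211-103123460, plus strand: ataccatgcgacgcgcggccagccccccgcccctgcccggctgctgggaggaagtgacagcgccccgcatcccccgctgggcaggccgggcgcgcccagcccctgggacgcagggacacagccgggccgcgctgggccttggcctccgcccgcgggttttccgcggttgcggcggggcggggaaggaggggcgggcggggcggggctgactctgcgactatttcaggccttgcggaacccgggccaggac

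Before start 1 of NFKBIZ the match was GGGAATTTCC, beginning 223 bases upstream, and before start 2 it was GGGGTTTCCC, 239 bases upstream. NFKBIA carried GGGAATTTCC on the other strand, 81 bases before its start, which reads GGAAATTCCC in the line above. In the TNFAIP2 window there was no kB consensus match. The same letters, GGGAATTTCC, stood 49 bases before start 1 of NFKB1 and, on the other strand, 46 bases before the start of REL. These 4 genes with the same letters had mean log2 ratios of -1.01 (NFKBIZ), 0.03 (NFKBIA), 0.30 (NFKB1) and 0.03 (REL). REL also had GGGAAATTCC 47 bases before its start, overlapping the other match, TNFAIP3 had GGGACTTTCC and GGGGATTTCC on the other strand at 67 and 55 bases, and BIRC3 had GGGGATTTCC and GGGGAACTCC on the other strand at 199 and 135 bases. Of the 14 start regions of 9 genes (all members but RELB), 9 (64.3%) held the kB consensus, against 5.21% of 35116 promoters. Known NFkB targets are in the list by choice, and some genes have several regions, so this share is no independent evidence. The RELA regions held no kB consensus match. A match describes letters in a window and not binding, and no binding was measured in this series.

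**Figure D1:**
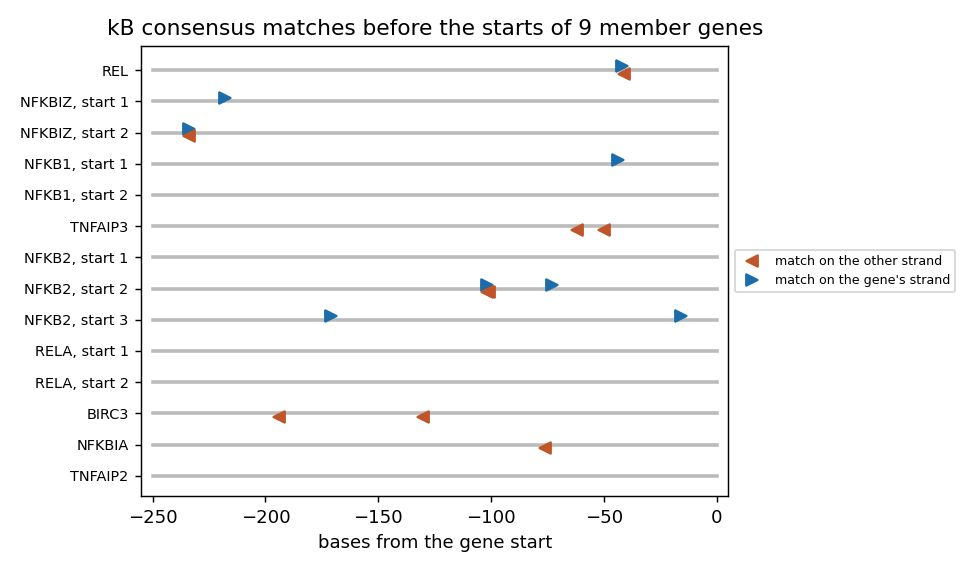
Positions of kB consensus matches in the 250 bases before each start of 9 member genes (horizontal axis, bases from the start at 0). Triangles pointing right are matches on the gene's strand and triangles pointing left on the other strand. The NFKBIZ matches lie near the far end of their windows at 223 and 239 bases, and the TNFAIP2 row is empty.

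GALNT3 itself could not be checked on these arrays. Its probe had log2 ratios of -0.09, 0.08, 0.12 and -0.14 and was well above background in the knockdown channel on 2 of 4 arrays and in the ctrl channel on 4 of 4. Across all spots, 88.12% to 96.95% were well above background in the knockdown channel and at least 95.9% in the ctrl channel, lowest for the knockdown channel of sh-G2 replicate 2, and 0 of 43376 were saturated on any array. Over all probes Pearson's r within a dye-swap pair was 0.324 (sh-G1) and 0.186 (sh-G2), while for different clones in the same dye it was 0.613 and 0.732, so part of the ratio of a probe follows the dye. The 4 arrays share a slide and the ctrl clone.

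Of the genes for DNA-binding subunits, 3 were measured. NFKB1 encodes the precursor of a subunit without its own activation domain, which the cell processes into the mature DNA-binding protein. In sh-G1 its log2 ratio was 0.18 and 0.28, and in sh-G2 0.57 and 0.16. All 4 arrays were thus higher in the knockdown clone, and sh-G2 replicate 1 stood above the other 3. In the normalised log2 levels, ctrl lay between 12.22 and 12.29 and the knockdown clones at 12.40, 12.55, 12.83 and 12.45, with no overlap. The mean was 0.30 (standard error 0.07, 95% interval 0.09 to 0.51, n = 2 clones), a 1.231-fold higher signal, with a limma adjusted p of 0.2574. Without sh-G2 replicate 1 the mean was 0.20. Over all probes 6.21% were higher on all 4 arrays by any amount, and NFKB1 was the 1 of 9 member probes that was.

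NFKB1 is also the member measured most often, since its probe was printed in 10 spots per array, of which 8 to 10 were free of outlier marks. Single spots ranged from 0.08 to 0.30 and from -0.0049 to 0.48 on the sh-G1 arrays, and from 0.27 to 0.91 and from -0.03 to 0.24 on the sh-G2 arrays. All spots used were above 0 on both arrays with the knockdown clone in Cy5, and the widest range was that of sh-G2 replicate 1. Spots of 1 array share its RNA and dye and are no replicates of the clones.

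RELB encodes the subunit of the alternative pathway, which pairs with the NFKB2 product. Its log2 ratio was 0.06 and 0.21 in sh-G1 and -0.31 and -0.32 in sh-G2. Both arrays of sh-G1 were above 0 and both of sh-G2 below, on either dye orientation. The difference of sh-G1 minus sh-G2 was 0.45 (standard error 0.13, 95% interval 0.10 to 0.80), and with Benjamini-Hochberg adjustment over all probes it did not pass the limma test (adjusted p = 0.508). The mean over both clones was -0.09 (standard error 0.13, 95% interval -0.49 to 0.30, limma adjusted p = 0.8512). No member probe passed the test of the clone difference, against 0.123% of all probes.

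REL encodes c-Rel, the subunit best known from lymphoid cells. Its log2 ratio was 0.08 and -0.06 in sh-G1 and 0.16 and -0.06 in sh-G2. Both arrays with the knockdown clone in Cy5 were above 0 and both in Cy3 below. The mean was 0.03 (95% interval -0.11 to 0.17, limma adjusted p = 0.8662), and the number of arrays limits how small a change could be seen.

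Among the inhibitors, NFKBIZ differed most from ctrl. Its product is an atypical IkB that works in the nucleus, where it binds NFkB dimers on chromatin and is needed for a set of late inflammatory genes. The log2 ratio was -1.34 and -0.90 in sh-G1 and -1.12 and -0.69 in sh-G2. All 4 arrays were lower in the knockdown clone, more so where it carried Cy5. In normalised log2 levels ctrl stood at 9.78, 9.64, 9.88 and 9.57 and the knockdown clones at 8.44, 8.74, 8.75 and 8.88 on the same arrays, so the lowest ctrl value was above the highest knockdown value. The unprocessed median spot intensities were 282.5, 336, 359 and 497 in the knockdown channel, over local backgrounds of 41.5, 40, 38 and 46.5, so the probe was well above background on every array.

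NFKBIZ fell by a mean of 1.01 on the log2 scale (standard error 0.07, 95% interval -1.23 to -0.80, n = 2 clones, limma adjusted p = 0.04531, adjusted by Benjamini-Hochberg over 39152 probes), a 2.019-fold lower signal. It was the 1 member probe of 9 that passed in this direction, against 0.7% of all probes, and 0 of 9 passed in the other, against 0.138%. The clone means were -1.12 and -0.91, and their difference of -0.21 (95% interval -0.46 to 0.03) did not pass the test (limma adjusted p = 0.7372). The call was lost when the ctrl clone was given the same spread as a knockdown clone (adjusted p = 0.2953), without background correction (0.05184) and with both channels required above background (0.05277). In these bulk cultures, fewer cells that express a gene and less of its RNA per cell cannot be told apart.

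NFKBIA encodes IkBa, the cytoplasmic inhibitor that is degraded on stimulation and then resynthesised as an NFkB target. Its log2 ratio was 0.05 and 0.02 in sh-G1 and 0.19 and -0.15 in sh-G2. The levels overlapped, at 13.81, 13.87, 13.72 and 13.89 in ctrl and 13.86, 13.90, 13.91 and 13.74 in the knockdown clones. The mean was 0.03 (standard error 0.06, 95% interval -0.15 to 0.21, limma adjusted p = 0.9099). The same arrays thus gave a mean log2 ratio of -1.01 for NFKBIZ and 0.03 for NFKBIA, and the difference between the probes was not tested.

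**Figure D2:**
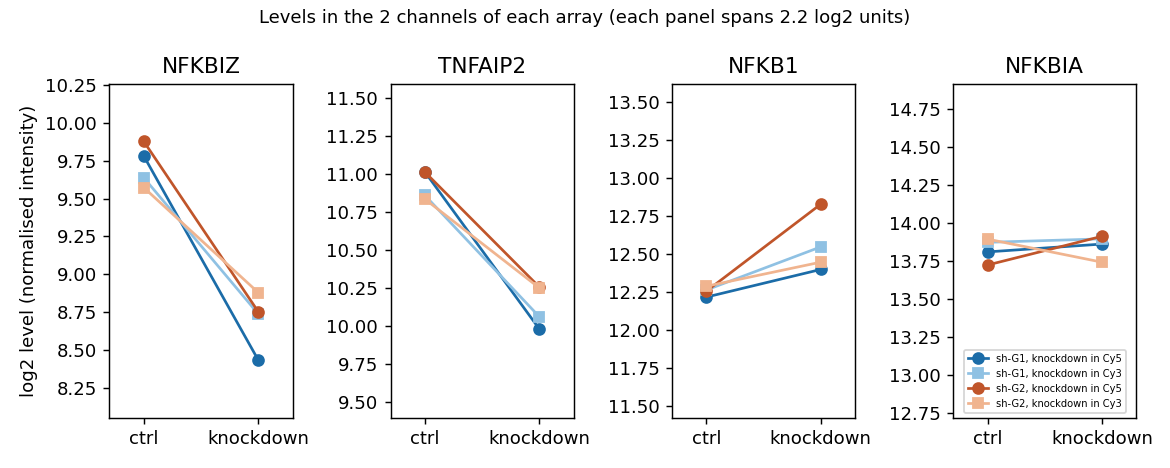
Normalised log2 intensity of 4 member probes in the ctrl channel and the knockdown channel of each array, joined by a line per array (blue sh-G1, orange sh-G2, circles knockdown in Cy5, squares in Cy3, every panel spanning the same log2 range). NFKBIZ and TNFAIP2 fall on all 4 lines without overlap, NFKB1 rises on all 4, and the NFKBIA lines stay between 13.72 and 13.91.

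TNFAIP2 was the other member past 1.5-fold on every array. It was first found as a TNF-induced gene of endothelial cells, and its product takes part in forming membrane nanotubes between cells. The log2 ratio was -1.03 and -0.80 in sh-G1 and -0.76 and -0.59 in sh-G2. All 4 arrays were lower in the knockdown clone, with sh-G1 below sh-G2 on each dye orientation. The ctrl levels were 11.01, 10.86, 11.01 and 10.83 and those of the knockdown clones 9.98, 10.06, 10.25 and 10.25, with no overlap.

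The TNFAIP2 mean was -0.79 (standard error 0.09, 95% interval -1.05 to -0.54, n = 2 clones), a 1.734-fold lower signal with a limma adjusted p of 0.08347, which did not pass. It passed when sh-G1 replicate 1, sh-G1 replicate 2 or sh-G2 replicate 1 was left out (limma adjusted p = 0.04351, 0.0148 and 0.007276), when a clone is represented by 1 array and the dye effect no longer cancels. It also passed with the dye orientation as a block over the 4 arrays (0.01461), with clone as a random block (0.001642) and with the series matrix values of 3 arrays (0.02512). The dye block counts the 2 arrays of a clone as separate replicates. In every other setting run TNFAIP2 did not pass. Its limma adjusted p there ran from 0.07237 (the software's own ratios) to 0.5137 (ctrl given the same spread as a knockdown clone). The difference of sh-G1 minus sh-G2 was -0.25 (95% interval -0.55 to 0.06, limma adjusted p = 0.7652). Of the 9 member probes, those of NFKBIZ and TNFAIP2 were at least 1.5-fold lower on all 4 arrays, and 0 were at least 1.5-fold higher, against 0.23%. TNFAIP2 is a member of that count by a narrow margin, because its log2 ratio on sh-G2 replicate 2 was -0.5853 where 1.5-fold is 0.585.

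TNFAIP3 encodes A20, a ubiquitin-editing enzyme that shuts off signalling upstream of IKK and is itself an NFkB target. Its brighter probe had log2 ratios of 0.30 and -0.20 in sh-G1 and 0.34 and -0.44 in sh-G2. Here the sign followed the dye: both arrays with the knockdown clone in Cy5 were above 0 and both in Cy3 below. Replicate 1 minus replicate 2 was 0.64, against a median absolute value of 0.23 and a 95th percentile of 0.74 over all probes. The mean over the 2 clones was 0.00 (95% interval -0.16 to 0.16, limma adjusted p = 0.9997).

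A second TNFAIP3 probe, which was dimmer and well above background in the knockdown channel on 3 of 4 arrays, had log2 ratios of 0.04, 0.11, 0.03 and -0.29. The array below 0 was sh-G2 replicate 2, the array with the fewest spots above background in the knockdown channel. The mean was -0.03 (95% interval -0.23 to 0.17, limma adjusted p = 0.9203). Neither probe passed the limma test, which rests on the moderated spread between the 2 clone means.

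BIRC3 encodes cIAP2, a ubiquitin ligase at the TNF receptor complex that is induced by NFkB. The log2 ratio was -0.04 and -0.11 in sh-G1 and -0.20 and -0.28 in sh-G2. It was below 0 on all 4 arrays by small amounts, and on 1 of the 4 the knockdown channel was not well above background, so the size of the difference is limited by signal. The mean was -0.16 (standard error 0.06, 95% interval -0.33 to 0.02, limma adjusted p = 0.4174). Its size depended on the processing, at -0.47 with the software's own ratios, -0.39 with the series matrix values of 3 arrays, -0.32 with a normexp offset of 0 and -0.02 with median centring, and it passed under none of these. With NFKBIZ and TNFAIP2, 3 of the 9 probes were lower on all 4 arrays by any amount, against 9.04% of all probes.

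**Figure D3:**
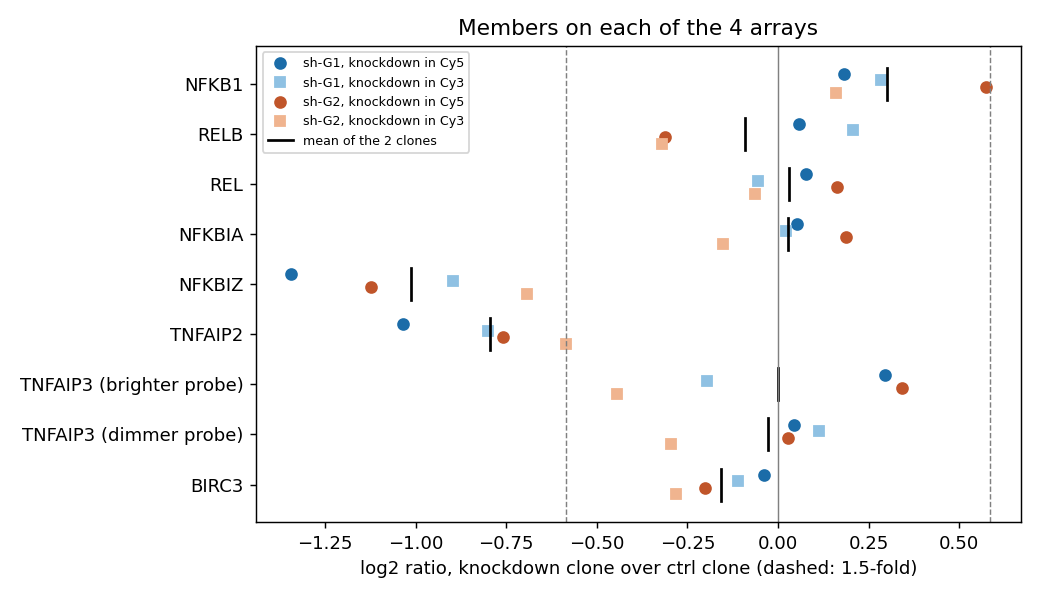
Log2 ratio of knockdown over ctrl (horizontal axis) for the 9 member probes on each array, in blue for sh-G1 and orange for sh-G2, with circles for the knockdown clone in Cy5, squares for Cy3 and a black bar for the mean of the 2 clones. Dashed lines mark 1.5-fold. All points of NFKBIZ and TNFAIP2 lie at or beyond the left line, with TNFAIP2 on sh-G2 replicate 2 on the line at -0.59, and the RELB points split by clone.

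Set against dye orientation, the members differed in pattern. NFKBIZ, TNFAIP2, NFKB1 and BIRC3 kept 1 sign on both orientations and in both clones, RELB split by clone, and REL and the brighter TNFAIP3 probe split by dye. NFKBIA and the dimmer TNFAIP3 probe had 1 array on the other side of 0 from the other 3, sh-G2 replicate 2 in both cases. NFKBIZ also moved with the dye, by -0.44 from replicate 2 to replicate 1, which is less than its mean change of -1.01.

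**Figure D4:**
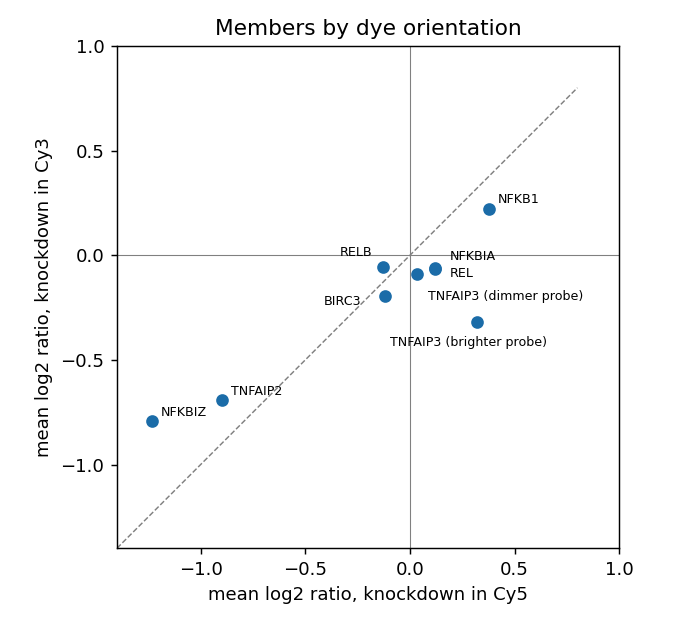
Mean log2 ratio of the 2 arrays with the knockdown clone in Cy5 (horizontal axis) against that of the 2 arrays with it in Cy3 (vertical axis), 1 point per member probe, with a dashed line of equality. The brighter TNFAIP3 probe lies farthest below the line, and NFKBIZ and TNFAIP2 lie in the lower left. The NFKBIA and REL points nearly coincide.

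The genes whose 4 ratios lay nearest to those of NFKBIZ, by Euclidean distance over the 4 arrays among all named genes, were AGPAT3, GATA5, ZNF702P, TNNT2 and NECTIN3, at distances from 0.09 to 0.32. AGPAT3, an acyltransferase of phospholipid synthesis, was closest, with log2 ratios of -1.34, -0.95, -1.15 and -0.62. For TNFAIP2 they were SDC2, PIM1, SEMA3D, BTG1 and PEG10, at distances from 0.15 to 0.25. SDC2, a heparan sulfate proteoglycan of the cell surface, had log2 ratios of -1.08, -0.74, -0.64 and -0.53. PIM1 encodes a serine/threonine kinase, and its mean was -0.80. These distances cover 4 arrays that share ctrl, and none of these genes is in the NFkB lists.

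The rest of the pathway was read from lists of 75 other genes, 74 of them kept, each by its brightest probe. Of the 74, 0 passed the limma test in either direction, where 0.906% of all 16879 named genes passed as lower and 0.184% as higher, and the smallest adjusted p was 0.07952. At an unadjusted p under 0.05, 9 of the 74 were lower and 3 higher, against 9.09% and 6.24% of all genes. The median log2 ratio of the 74 was 0.00, as was that of all named genes, and the median of the 8 members was -0.05. The middle 95% of all genes lay between -0.55 and 0.34, which left NFKBIZ and TNFAIP2 outside, and among the 74 GADD45B and TNFAIP8.

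Receptors and adaptors carry the signal toward the IKK kinases. All 18 measured genes of this list failed the test, and their log2 means ran from -0.26 for TLR3, the receptor of double-stranded RNA, to 0.24 for IRAK4, a kinase of the Toll-like and IL-1 receptors. TLR3 had log2 ratios of -0.43, -0.27, -0.17 and -0.16, lower on all 4 arrays (limma adjusted p = 0.2918). IRAK4 was at -0.13, 0.48, 0.25 and 0.38 (limma adjusted p = 0.2472), and its dimmer probe at a mean of 0.19.

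The IKK complex and its activating kinases, which mark IkB proteins for degradation, gave 11 measured genes with a median of 0.01, none past an unadjusted p of 0.05. IKBKE, a kinase related to IKK, had the lowest mean at -0.17, resting on 1 array of sh-G2 at -1.05 where the other 3 were -0.06, 0.20 and 0.23. MAP3K8, a kinase held by the NFKB1 precursor, had the highest at 0.20, with sh-G1 at -0.12 and 0.09 and sh-G2 at 0.48 and 0.36.

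The other IkB family list held 4 genes. BCL3, like NFKBIZ a nuclear IkB protein, had log2 ratios of -0.59 and -0.13 in sh-G1 and -0.53 and -0.37 in sh-G2. It was lower on all 4 arrays, with a mean of -0.41 that did not pass the test (limma adjusted p = 0.1519). NFKBIE, a cytoplasmic IkB, was at -0.12, 0.66, -0.18 and 0.35, its sign following the dye, with a mean of 0.18.

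Ubiquitin ligases and editors attach and remove the chains that assemble receptor complexes. Of 13 measured genes 0 passed the test, and the median was -0.01. RNF31, the catalytic part of the linear chain ligase, was the lowest, at -0.21, -0.41, -0.14 and -0.36 (mean -0.28, limma adjusted p = 0.2315). TAX1BP1, a partner of A20, was the highest, and its values split by clone, 0.59 and 0.70 in sh-G1 and -0.02 and 0.04 in sh-G2. The difference between the clones did not pass the test (limma adjusted p = 0.239).

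The list of target genes, which NFkB induces in many cells, had 33 genes, of which 32 were kept. GADD45B, a stress-induced regulator of survival signalling, had log2 ratios of -0.70 and -0.39 in sh-G1 and -0.78 and -0.42 in sh-G2. It was lower on all 4 arrays with a mean of -0.57 (standard error 0.06, limma adjusted p = 0.07952), and it passed without sh-G1 replicate 2, with the series matrix values, with the dye orientation as a block and with clone as a random block over the 4 arrays. Its dimmer probe had a mean of -0.12, so the 2 probes differed. TNFAIP8, a TNF-induced inhibitor of apoptosis, had the highest mean at 0.41 (limma adjusted p = 0.2357), with -0.12 and 0.66 in sh-G1 and 0.28 and 0.81 in sh-G2. At an unadjusted p under 0.05, the means of GADD45B, CD83, BCL2A1, IRF1 and CXCL1 were below 0 and those of CFLAR and TNFAIP8 above. Of these, BCL2A1, IRF1 and CFLAR changed sign with the dye, and GADD45B, CD83 and CXCL1 were below 0 on all 4 arrays.

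**Figure D5:**
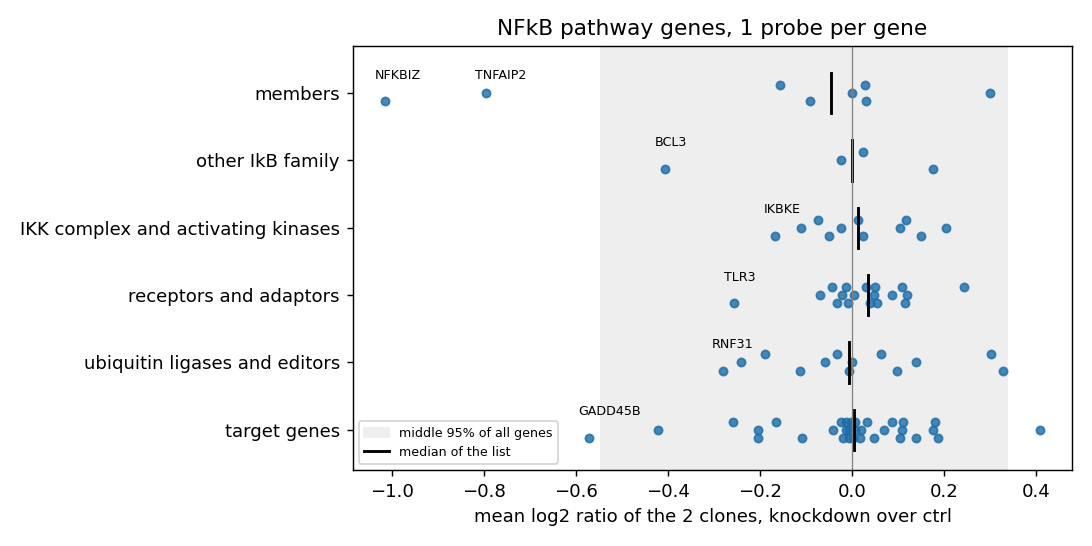
Mean log2 ratio of the 2 clones for each measured gene of the members and the 5 pathway lists, 1 probe per gene, with a black bar for the list's median and a grey band for the middle 95% of all named genes, -0.55 to 0.34. The list medians lie between -0.05 and 0.035, and NFKBIZ and TNFAIP2 stand to the left of the band.

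Markers of cell types were read beside these values. Leukocytes, in which NFkB genes are prominent, had 8 marker genes listed, of which 7 were kept, with a median log2 ratio of -0.02 and 0 past the test. Their summed normalised level, on the log2 scale, lay between 12.86 and 13.27 in ctrl and between 12.98 and 13.31 in the knockdown clones. Of 6 fibroblast markers 5 were kept, all 5 lower on all 4 arrays by their brightest probe, PDGFRA past the test, and a second COL1A2 probe was at 0.01. LUM (mean -3.31) and DCN (-3.17) fell most, and their means did not pass. Their clone differences, sh-G1 minus sh-G2, passed at -2.53 and -2.15 (limma adjusted p = 0.01815 and 0.03002). The summed fibroblast marker level was 15.35 to 15.44 in ctrl and 13.32 to 13.82 in the knockdown clones. DCN gave the strongest signal of the 5 in ctrl (mean level 14.68), so this sum does not describe the markers as a group. Of the 10 epithelial and ovarian carcinoma markers, KRT18 (mean -2.32) and KRT8 (-1.03) passed as lower. The others did not pass, and the list median was -0.04. A second KRT8 probe was at -0.44 and did not pass. Further KRT18 probes, at -2.50 and -1.96, passed as lower (limma adjusted p = 0.02141 and 0.01949). The summed level was 14.11 to 14.31 in ctrl and 13.06 to 13.28 in the knockdown clones. KRT18 gave the strongest signal of the 10 in ctrl (mean level 13.23), so the sum does not describe the markers as a group. All kept markers, those of leukocytes included, were well above background on every array, so detection here did not separate cell types. The part of these markers' changes in the NFKBIZ and TNFAIP2 results was not tested.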

How the data were processed

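Total RNA of the clones sh-G1, sh-G2 and ctrl was compared on 4 two-colour Agilent Whole Human Genome arrays on 1 slide, grouped by the sample labels. The authors read the scans with Feature Extraction (version 8.5.1.1 in the submitters' processing notes, 10.5.1.1 in the array files) and deposited, for each spot and channel, median spot and background intensity values, flags, and the log10 ratio of the software's dye-normalised signals. The deposited series matrix holds this log10 ratio for 3 arrays, while the column the authors deposited for sh-G1 replicate 2 holds the error of the ratio, a score that was not used.

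From the median spot intensities, background was corrected with normexp (offset 50) and log2 ratios were normalised by loess within each array with limma 3.58.1 in R 4.3.3. Spots with outlier marks (145 to 215 of 43376 per array) were left out, ratios were signed as knockdown over ctrl, and replicate spots were averaged per probe. Of 40905 probes, 39152 passed the filter, which asked on each array for 1 channel or both well above background. Loess centres each array, so a change shared by most genes would not show.

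Probes were named by accession through a RefSeq table of GRCh38.p14, 25393 of 41000. Promoter sequences are from RefSeq, same assembly. Both arrays of a clone were averaged, since it is not stated whether they hold separate RNA extracts, and the mean of 2 clones was tested against 0 (lmFit, eBayes with trend, Benjamini-Hochberg over all kept probes, threshold 0.05). The clone difference was fitted on the 4 arrays with a dye term. Probes past 1.5-fold on every array, the study's selection, were counted only. A gene with several probes stands in list counts by its brightest kept probe. The steps were also run on simulated data. For the test of the mean, dye error there cancelled within a clone and no ctrl spread was drawn, so neither was tested.

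The genes named are all members, GALNT3, in each pathway list the genes past a threshold and those farthest from 0 on each side, and the 5 nearest genes by Euclidean distance to each member past 1.5-fold. The genes named at an unadjusted p under 0.05 and the markers that changed were added after their values were seen. The members and lists were chosen with earlier results of these data known. Alternatives were other background corrections, normalisations, filters and thresholds, the deposited ratios, each array left out, a random block for clone (statmod 1.5.0), a dye block, and a spread for ctrl. Promoter searches and figures used Python 3.11.15 (numpy 2.4.6, matplotlib 3.10.9).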

Additional observations from a re-analysis of the deposited data

Results flagged for a closer look

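RELB was singled out because the clones went opposite ways. Both sh-G1 arrays were above 0, both sh-G2 arrays below, and the log2 ratio of sh-G1 minus sh-G2 was 0.45. The test of that difference over all probes did not pass (limma adjusted p = 0.508).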

How the results depend on the processing

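NFKBIZ stayed lower than ctrl under every alternative run, with a mean log2 ratio between -1.14 and -0.90 and an adjusted p between 0.0007016 and 0.2953, and TNFAIP2 between -0.85 and -0.74 (adjusted p between 0.001642 and 0.5137). The number of member probes called lower was 1 in the main setting, 0 without background correction, with both channels above background and with ctrl assumed to vary like a knockdown clone (smallest adjusted p of any probe 0.1195), and 2, NFKBIZ and TNFAIP2, with the series matrix values of 3 arrays, with clone as a random block over 4 arrays and with the dye orientation, which is the replicate number, as a block (replicate block). It ranged from 1 to 2 when 1 array was left out. The random block also called 1 member, NFKB1, higher (adjusted p = 0.04105). The number at least 1.5-fold lower on all arrays was 1 with median centring, with the software's log ratio and with the series matrix values, and 0 at 2-fold. Of the other pathway genes, 1 (GADD45B) was called lower with the series matrix values, 6 with the random block (BCL3, CD83, CXCL1, GADD45B, RNF31 and TLR3) and 1 (GADD45B) with the replicate block, and between 0 and 1 when 1 array was left out. Means near 0 changed sign. REL was at -0.01 with median centring and between -0.0269 and 0.0863 when 1 array was left out. NFKBIA was at -0.0068 with the software's ratio, -0.0626 with the series matrix, and between -0.0574 and 0.1131 when 1 array was left out. The brighter TNFAIP3 probe was at 0.0036 with an offset of 0, 0.0085 with the software's ratio, 0.0169 with the series matrix and between -0.1966 and 0.1965 when 1 array was left out. The dimmer probe was at 0.0063 without background correction, 0.0664 with median centring, 0.0387 with the software's ratio and between -0.1083 and 0.0523 when 1 array was left out. The cause of these shifts was not tested. No setting moved the median log2 ratio of all probes beyond 0.0238. Dim probes, BIRC3, the second TNFAIP3 probe and GALNT3 among them, are limited by their signal over background.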
